A study of Homo sapiens with 32 samples.

Results

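The oncostatin M receptor gene OSMR and its partners in gp130 cytokine receptor signalling were followed in 2 human germ cell cancer cell lines, TCam-2 and NTera2. The members were OSMR, LIFR, IL6ST, IL6R, LIF, JAK1, STAT3 and SOCS3, matched by gene symbol. They made up 8 of the 61541 genes in the deposited table, 35258 of which carried a symbol. OSMR was chosen by measured values, since it had the smallest p among the 16621 genes tested with OPG against vehicle in TCam-2. Values of that comparison are therefore given for the members as a description, with no test.

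TCam-2 is a seminoma-derived line and NTera2 an embryonal carcinoma-derived line, and the study asked how RANKL and inhibitors of RANKL act on them. Cells of each line received RANKL (1 µg/ml), its decoy receptor OPG (1 µg/ml), the RANKL-binding antibody denosumab, or D-PBS as vehicle for 48 h. Each of these 8 groups held 4 libraries of polyadenylated RNA from independent experiments, 32 libraries in all, and all cells grew in medium with fetal bovine serum. TCam-2 was at passages 118, 120, 121 and 122 and NTera2 at passages 27, 29, 30 and 31, with every treatment present at every passage. Sample titles and labels name denosumab, while the treatment protocol lists RANKL again where denosumab would stand and gives it no dose. Each line is a single culture model, so a difference between the lines is a difference between these 2 cultures.

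Read counts summed to between 10585247 and 20257935 per library in TCam-2 and between 11385500 and 30499538 in NTera2. The lines carried the markers of their labels. In the denosumab libraries all 7 seminoma line markers, among them SOX17 and TFAP2C, were higher in TCam-2, and 5 of 6 embryonal carcinoma line markers, among them SOX2, were lower. POU5F1, a pluripotency factor on both lists, was higher in TCam-2. The RNA integrity number was 8.3 or above except in TCam-2 RANKL at passages 120 (6.1) and 122 (3.7), and the labels gave none for NTera2 vehicle at passage 27.

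Most cytokines of the interleukin-6 family signal through gp130, a shared receptor chain encoded by IL6ST. IL6R binds interleukin-6 and brings it to gp130, LIFR pairs with gp130 to receive LIF, and OSMR pairs with gp130 to receive oncostatin M. Kinases of the JAK family bound to these chains phosphorylate STAT3, which moves to the nucleus, and SOCS3 is a STAT3-induced inhibitor that binds gp130 and the kinase and ends the signal. In the mouse, LIF acting through LIFR, gp130 and STAT3 maintains embryonic stem cells.

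OSMR (ENSG00000145623) and LIFR (ENSG00000113594) are neighbours on chromosome 5 of hg38. OSMR lies at chr5:38845858-38945596 on the plus strand and LIFR at chr5:38474668-38608354 on the minus strand. IL6ST (ENSG00000134352) lies farther along the same chromosome at chr5:55935095-55994963 on the minus strand. RefSeq start sites (GRCh38.p14) were matched for 7 of the 8 members. The 250 bases before a start of each of these 3 receptor genes are shown because OSMR and IL6ST differed most between the lines among the members and LIFR is the neighbour of OSMR, and capitals mark a STAT-type motif, TTCNNNGAA, read on both strands.
OSMR, chr5:38845762-38846011, plus strand: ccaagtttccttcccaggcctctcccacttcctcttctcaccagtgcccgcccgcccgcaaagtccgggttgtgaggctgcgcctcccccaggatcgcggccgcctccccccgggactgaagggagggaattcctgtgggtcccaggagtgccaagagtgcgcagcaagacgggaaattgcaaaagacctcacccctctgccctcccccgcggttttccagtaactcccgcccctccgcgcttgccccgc
IL6ST, chr5:55994964-55995213, minus strand: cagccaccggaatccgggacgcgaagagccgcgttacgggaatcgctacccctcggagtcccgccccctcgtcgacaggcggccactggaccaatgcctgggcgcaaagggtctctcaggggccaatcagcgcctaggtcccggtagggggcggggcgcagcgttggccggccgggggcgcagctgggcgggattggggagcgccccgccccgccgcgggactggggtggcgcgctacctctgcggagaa
LIFR, chr5:38595406-38595655, minus strand: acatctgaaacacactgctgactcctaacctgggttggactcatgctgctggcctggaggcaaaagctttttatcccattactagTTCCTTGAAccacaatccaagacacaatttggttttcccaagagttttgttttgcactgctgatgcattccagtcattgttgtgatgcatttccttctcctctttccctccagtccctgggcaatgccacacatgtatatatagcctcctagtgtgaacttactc
The motif is its own reverse complement, and it occurred in 6.57% of the 35116 promoter windows of this length. The OSMR and IL6ST windows held no match. LIFR had a match at 2 of its 3 RefSeq starts, TTCCTTGAA in the window shown (165 bases before the start) and TTCATCGAA at another (182 bases before). The OSMR window was 66.4% G and C, the IL6ST window 73.6% and the LIFR window shown 45.2%. At the other LIFR starts it was 40.8% (with TTCATCGAA) and 83.6% (without a match). Such a match is a description of the letters, and the series has no binding or chromatin data to set beside it. The remaining members lie on chromosome 1 (IL6R at chr1:154405193-154466877, plus strand, and JAK1 at chr1:64833229-65067732, minus strand), chromosome 17 (STAT3 at chr17:42313324-42388442 and SOCS3 at chr17:78356778-78360074, both minus strand) and chromosome 22 (LIF at chr22:30240453-30246759, minus strand). No match was found in the windows of IL6R, JAK1, STAT3 and SOCS3. RefSeq starts can differ from the deposited gene ends. The SOCS3 windows, chr17:78360926-78361175 and chr17:78359668-78359917, leave out the bases just before the deposited start of SOCS3, which were not searched. The LIFR window shown lies within the deposited bounds of LIFR. The OSMR window and the IL6R window, chr1:154405093-154405342, run past the deposited gene starts, so part of each lies within the deposited gene.

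All 8 members had counts in every library and passed the filter on low counts in every fit. Levels are given as CPM (counts of a gene relative to the library's total, on the usual CPM scale), adjusted with TMM factors over all 32 libraries, and between genes as CPM per kilobase of deposited gene length. Per kilobase, SOCS3 was the highest member in TCam-2, at 32.7 ± 4.16 CPM (SD, n = 16 libraries). It was followed by IL6ST at 10.6 ± 2.11, IL6R at 8.80 ± 1.46, STAT3 at 8.07 ± 0.537, JAK1 at 6.49 ± 0.548, OSMR at 5.58 ± 0.967, LIF at 3.09 ± 0.765 and LIFR at 1.88 ± 0.268 CPM per kilobase. Only the step between SOCS3 and IL6ST separated the ranges of neighbours in this order. IL6ST was above IL6R in 13 of 16 TCam-2 libraries and IL6R above STAT3 in 11 of 16, so these 3 genes had no firm order among themselves.

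In NTera2 the order was a different list. STAT3 stood first at 10.0 ± 0.516 CPM per kilobase, then SOCS3 at 7.76 ± 1.11, JAK1 at 2.39 ± 0.271, LIF at 2.09 ± 0.353, IL6R at 1.16 ± 0.2, LIFR at 0.539 ± 0.052, IL6ST at 0.497 ± 0.107 and OSMR at 0.324 ± 0.0903 (SD, n = 16). The 4 receptor genes thus took the last places in NTera2, behind the ligand gene LIF. LIFR and IL6ST were not separable there, with LIFR higher in 10 of 16 libraries. OSMR was below IL6ST in 15 of 16 NTera2 libraries. Its read counts per library were between 296 and 827 in TCam-2 and between 17 and 122 in NTera2.

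**Figure D1:**
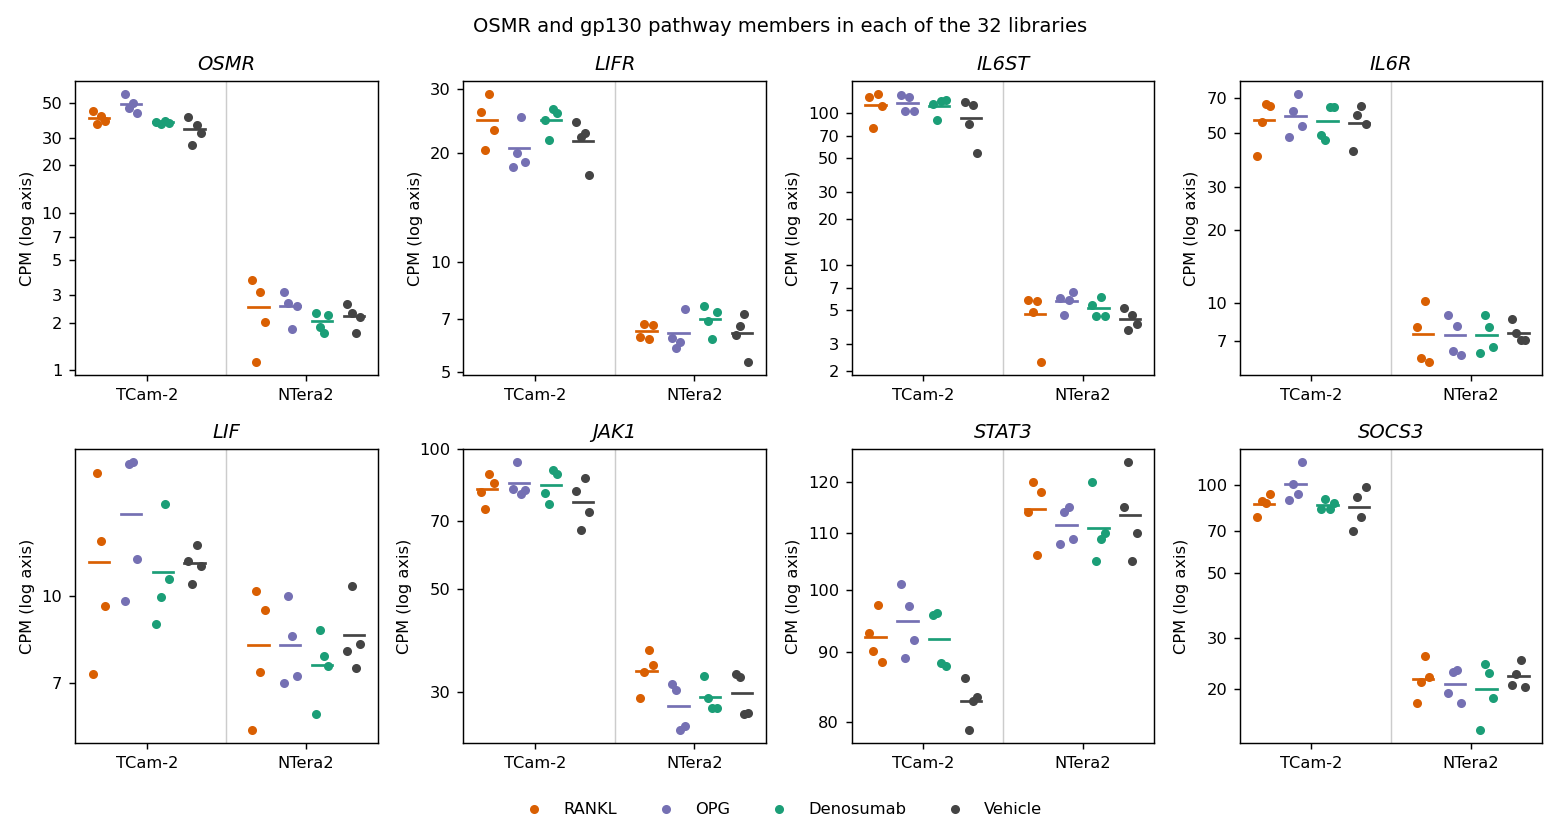
Level of each member in CPM (log axis, one scale per panel) in every library; points are libraries in order of passage, short lines are means of 4, with TCam-2 on the left and NTera2 on the right of each panel. OSMR, IL6ST, IL6R, LIFR, JAK1 and SOCS3 lay higher in every TCam-2 library than in any NTera2 library. With the TMM scaling drawn here, STAT3 lay lower in every TCam-2 library, and LIF overlapped.

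The receptor genes IL6ST, OSMR and IL6R showed the largest differences between the lines among the members. OSMR was at 37.6, 36.5, 38.5 and 37.1 CPM in the TCam-2 denosumab libraries, against 2.32, 1.89, 1.73 and 2.24 CPM in the NTera2 denosumab libraries, in order of passage. With RANKL it was at 44.0, 36.8, 41.0 and 38.2 CPM in TCam-2, against 3.74, 1.13, 3.15 and 2.02 CPM in NTera2. Every TCam-2 library was thus far above every NTera2 library. The OSMR difference was 17.6-fold (95% interval 14.6 to 21.2, edgeR adjusted p = 3.2e-17) in the denosumab libraries and 14.8-fold (11 to 20.1, adjusted p = 6.56e-13) in the RANKL libraries. Neither the OPG nor the vehicle libraries, whose difference chose OSMR, entered these fits, while the TCam-2 RANKL and denosumab libraries had shared in the estimate of spread behind that choice. In bulk RNA a larger share of expressing cells and more RNA per cell cannot be told apart.

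IL6ST, the shared signalling chain, differed by still more. It was at 114, 89.5, 120 and 122 CPM in the TCam-2 denosumab libraries and at 5.42, 4.59, 6.09 and 4.6 CPM in the NTera2 denosumab libraries, 20.7-fold higher in TCam-2 (17.5 to 24.4, edgeR adjusted p = 1.58e-18). The RANKL libraries gave 22.7-fold (17.2 to 30.0) and the vehicle libraries 21.1-fold (15.3 to 29.0). IL6R, the interleukin-6 binding chain, ranged from 46.8 to 64.4 CPM in the TCam-2 denosumab libraries and from 6.27 to 8.94 CPM in the NTera2 ones, 7.33-fold higher in TCam-2 (6.08 to 8.84, edgeR adjusted p = 1.59e-14). LIFR, the LIF-binding chain, ranged from 21.7 to 26.4 CPM in TCam-2 and from 6.16 to 7.58 CPM in NTera2 with denosumab, 3.41-fold higher in TCam-2 (2.87 to 4.05, edgeR adjusted p = 1.31e-11). All 4 receptor members were therefore higher in TCam-2, by differing amounts. Over the 3 sets of libraries tested, the fold was between 20.7 and 22.7 for IL6ST and between 3.41 and 3.75 for LIFR.

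Of all 8 members, edgeR called 8 between the lines in the denosumab libraries, where 79.7% of all 16633 genes tested were called. It called 7 in the RANKL libraries (74.3% of all genes called) and 8 in the vehicle libraries (76.2%). Such counts are near the background, since most genes differed between these lines. In the denosumab libraries 7 were higher and 1 lower in TCam-2, against 39.6% of all genes higher and 40.1% lower, with a median log2 fold change of 1.91 over the members and -0.01 over all genes tested.

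**Figure D2:**
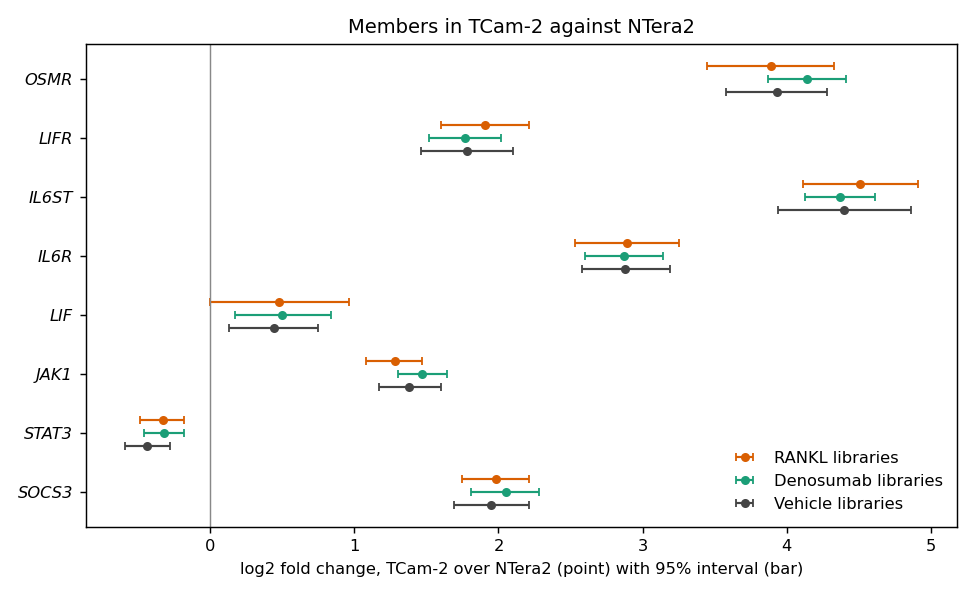
Fitted log2 fold change of each member, TCam-2 over NTera2, with its 95% interval, in the RANKL, denosumab and vehicle libraries (n = 4 per line and treatment). IL6ST and OSMR lay between 3.89 and 4.51, STAT3 lay between -0.44 and -0.32, and LIF was closest to 0 among the members higher in TCam-2.

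The other receptor genes of the gp130 family, taken from a list of 8 that includes the 4 members, were mixed in direction. CNTFR, which binds ciliary neurotrophic factor, averaged 0.142 CPM over the 16 TCam-2 libraries and 36.3 CPM over the 16 NTera2 libraries, and its log2 fold change in the denosumab libraries was -7.84 (edgeR adjusted p = 8.64e-17). IL27RA, the interleukin-27 receptor chain that pairs with gp130, averaged 3.69 CPM in TCam-2 and 26.4 CPM in NTera2 (log2 fold change -2.82, edgeR adjusted p = 5.78e-13). IL11RA, the interleukin-11 receptor chain, stayed near 1 CPM in both lines, at 0.949 CPM in TCam-2 and 1.09 CPM in NTera2 (log2 fold change -0.13, edgeR adjusted p = 0.774). IL31RA, which pairs with OSMR to receive interleukin-31, held 47 counts in all 16 TCam-2 libraries and 6 in all 16 NTera2 libraries, more in TCam-2, and was too low to test. The list as a whole thus had 7 genes tested, 4 higher and 2 lower in TCam-2, with the same split in the RANKL and vehicle libraries.

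Of the ligand genes, OSM was not detected at this depth and LIF differed little between the lines. OSM, which encodes oncostatin M, had 0 counts in all 32 libraries, which allows up to 0.0123 CPM in TCam-2 and 0.0121 CPM in NTera2 (3 counts over the 16 libraries of a line, counting error only). LIF was at 8.90, 9.94, 14.5 and 10.7 CPM in the TCam-2 denosumab libraries, against 6.19, 8.70, 7.82 and 7.5 CPM in the NTera2 ones. The LIF fold was 1.42 (1.12 to 1.79, edgeR adjusted p = 0.00759) with denosumab, 1.40 (1.00 to 1.95, adjusted p = 0.0644, not called) with RANKL and 1.36 (1.09 to 1.68, adjusted p = 0.0126) with vehicle. The denosumab call was lost without TCam-2 denosumab at passage 121 (adjusted p = 0.0596), the library with the highest LIF. The RANKL comparison became a call without TCam-2 RANKL at passage 118, the lowest TCam-2 library, with an edgeR adjusted p of 0.0113. It also became one with the replicate number as a block (0.0427), without the filter on low counts (0.0393) and with all 32 libraries in the fit (0.0267). The lines share no passage, so that block pairs their libraries by number only. Without the 2 TCam-2 libraries of low RNA integrity the RANKL log2 fold change was 0.27 (not called), against 0.48 with all libraries. The vehicle call was lost without the filter on low counts (0.0629) and with all 32 libraries in the fit (0.0523).

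IL6, the interleukin-6 gene, averaged 6.53 CPM over the TCam-2 libraries and 0.230 CPM over the NTera2 libraries (log2 fold change 4.11 in the denosumab libraries, edgeR adjusted p = 1.97e-07). CLCF1, a ligand that acts through the CNTF receptor, went the other way, at 3.25 CPM in TCam-2 and 8.38 CPM in NTera2 (log2 fold change -1.13, edgeR adjusted p = 0.000147). Of 11 ligand genes listed, 6 could be tested in the denosumab libraries, with 3 higher and 1 lower in TCam-2.

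Downstream of the receptors, JAK1 and TYK2 were higher in TCam-2 and STAT3 itself was lower. JAK1, the main kinase of gp130 signalling, was at 80.3, 76.2, 90.4 and 88.5 CPM in the TCam-2 denosumab libraries and at 32.6, 29.2, 27.7 and 27.8 CPM in the NTera2 ones, 2.77-fold higher in TCam-2 (2.47 to 3.11, edgeR adjusted p = 3.7e-13). TYK2, which also binds gp130 chains, averaged 101 CPM in TCam-2 and 31.3 CPM in NTera2 (log2 fold change 1.73, edgeR adjusted p = 8.06e-15). JAK2 did not pass the test, at 5.21 CPM in TCam-2 and 4.48 CPM in NTera2 (log2 fold change 0.09, edgeR adjusted p = 0.666). JAK3, a kinase of the common gamma chain receptors, averaged 0.0759 CPM in TCam-2 and 1.95 CPM in NTera2 and was lower in TCam-2 (log2 fold change -5.15, edgeR adjusted p = 7.7e-09).

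STAT3 was at 95.8, 96.2, 88.3 and 87.9 CPM in the TCam-2 denosumab libraries, against 120, 105, 109 and 110 CPM in the NTera2 denosumab libraries. The 2 sets did not overlap, as for 36.1% of all genes in this direction and 38.2% in the other. The fold was 0.801 (0.729 to 0.881, edgeR adjusted p = 0.000154) with denosumab, 0.793 (0.713 to 0.883) with RANKL and 0.739 (0.663 to 0.824) with vehicle. These levels depend on the scaling. With upper-quartile scaling, mean STAT3 in TCam-2 and NTera2 was 96.9 and 104 CPM with denosumab and 98.7 and 107 CPM with RANKL. It was 90.8 and 104 CPM with vehicle, but 103 and 102 CPM with OPG. Across the other STAT genes the direction was mixed. STAT2, a factor of interferon signalling, averaged 156 CPM in TCam-2 and 43.7 CPM in NTera2 (log2 fold change 1.58, edgeR adjusted p = 1.67e-14). STAT6, the factor of interleukin-4 signalling, averaged 4.64 CPM in TCam-2 and 137 CPM in NTera2 (log2 fold change -4.93, edgeR adjusted p = 7.72e-21). STAT5A was higher by 0.56 on the log2 scale, and STAT5B was at -0.08 and not called (edgeR adjusted p = 0.324). With upper-quartile scaling the count was 2 higher and 3 lower of the 6 STAT genes tested, against 3 higher and 2 lower with TMM.

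SOCS3, which feeds back on gp130 and JAK1, was at 83.2, 90.1, 83.3 and 86.7 CPM in the TCam-2 denosumab libraries and at 14.5, 24.4, 22.7 and 18.7 CPM in the NTera2 ones. Its fold was 4.14 (3.52 to 4.87, edgeR adjusted p = 6.36e-13) with denosumab, 3.95 (3.37 to 4.62) with RANKL and 3.86 (3.23 to 4.63) with vehicle. Among 15 SOCS, PIAS and phosphatase regulators tested, 10 were higher and 2 lower in TCam-2 in each of the 3 sets of libraries. With upper-quartile scaling 10 were higher and 3 lower in each set. Of all genes, 39.6% were higher and 40.1% lower with denosumab. PTPN6, a phosphatase that acts on JAK kinases, averaged 53.2 CPM in TCam-2 and 4.72 CPM in NTera2 (log2 fold change 3.65, edgeR adjusted p = 4.79e-17). SOCS1, an inhibitor of JAK kinases, averaged 12.7 CPM in TCam-2 and 6.16 CPM in NTera2 (log2 fold change 1.32, edgeR adjusted p = 2.3e-06). SOCS2, best known as a regulator of growth hormone signalling, averaged 2.45 CPM in TCam-2 and 47.2 CPM in NTera2 (log2 fold change -4.31, edgeR adjusted p = 7.91e-17). SOCS3 and SOCS2 thus differed between the lines in opposite directions.

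Genes described as STAT3 targets in other systems did not share a direction. In the denosumab libraries 27 of 30 listed genes were tested, with 17 higher and 9 lower in TCam-2 and a median log2 fold change of 0.76. TFCP2L1, a pluripotency factor downstream of LIF and STAT3 in the mouse, averaged 258 CPM in TCam-2 and 4.56 CPM in NTera2 (log2 fold change 5.8, edgeR adjusted p = 8.66e-17). KLF5, a factor of the same mouse network, averaged 26.5 CPM in TCam-2 and 0.752 CPM in NTera2 (log2 fold change 5.22, edgeR adjusted p = 2.47e-15). CCND1, which encodes the cell cycle regulator cyclin D1, averaged 4.73 CPM in TCam-2 and 258 CPM in NTera2 (log2 fold change -5.67, edgeR adjusted p = 6.11e-22). Adaptors that lead from gp130 to RAS and PI3K were also mixed, with 4 higher and 1 lower of 6 tested. They included GRB2 (0.95), SOS1 (1.02) and GAB1 (0.85) on the higher side and SHC1 (-0.76) on the lower, as log2 fold changes that all passed edgeR's threshold.

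**Figure D3:**
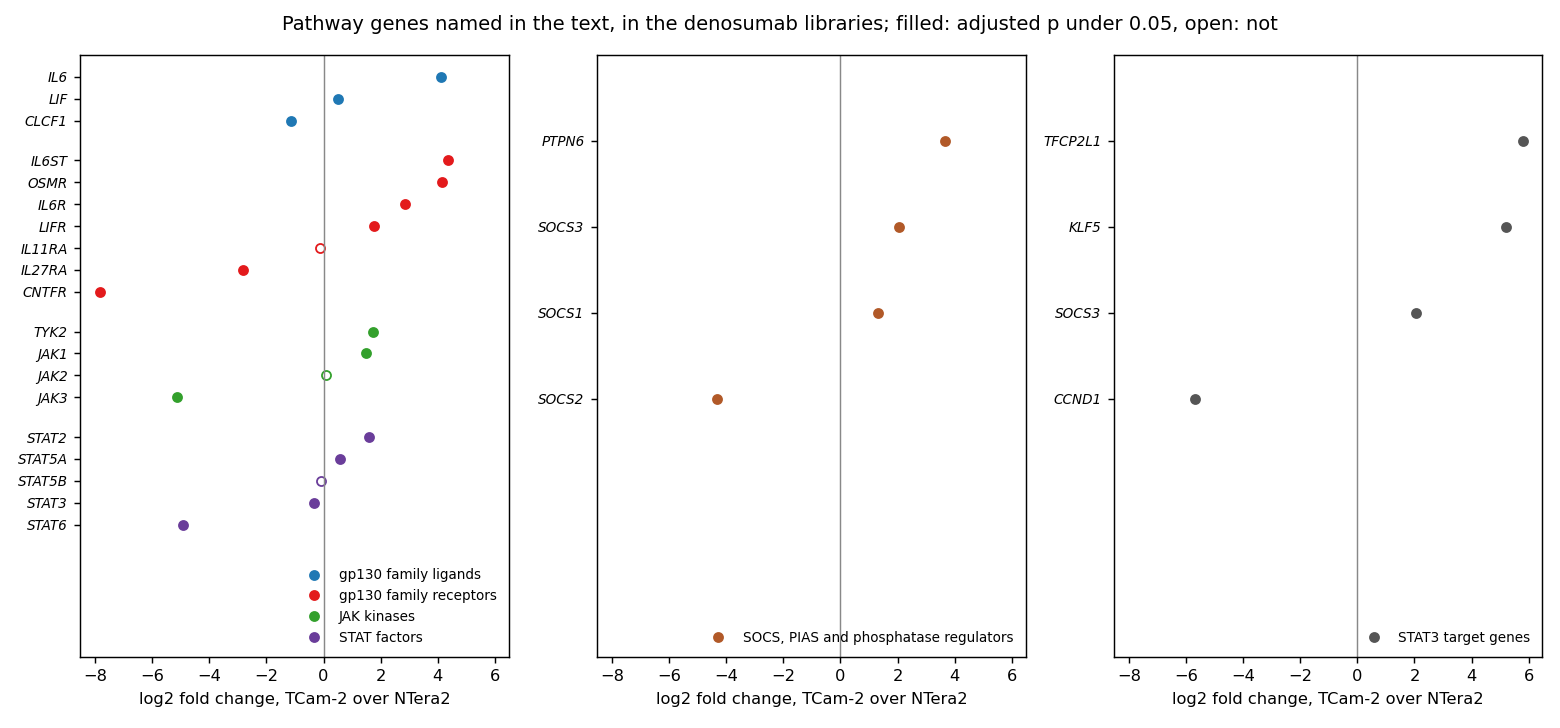
Log2 fold change, TCam-2 over NTera2, of the ligand, receptor, JAK, STAT, regulator and STAT3 target genes named in the text, in the denosumab libraries (n = 4 per line); filled points passed edgeR's adjusted p of 0.05 and open points did not. Receptors ran from 4.37 for IL6ST to -7.84 for CNTFR, and each of the 6 groups drawn held genes on both sides of 0.

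Markers of other cell types were checked in the same libraries. Immune cell markers summed to 1.90 to 4.29 CPM over 8 genes in TCam-2 libraries and to 0.900 to 3.11 CPM in NTera2 libraries, with no counts for CD3E in TCam-2 and none for PTPRC in NTera2, and of 2 immune markers tested, 2 were higher in TCam-2 with denosumab, but 1 was higher and 1 lower with RANKL and with vehicle. Fibroblast markers summed to 261 to 336 CPM over 9 genes in TCam-2 and to 321 to 411 CPM in NTera2, with FAP at 0 counts in both lines. Of 6 fibroblast markers tested with denosumab, 2 were higher and 4 lower in TCam-2, COL1A2 accounting for most of the TCam-2 sum at 269 CPM. Markers of endothelial, Sertoli and Leydig cells summed to 19.6 to 26.9 CPM over 8 genes in TCam-2 and to 58.0 to 104 CPM in NTera2, with HSD3B2 at 0 counts in both lines and INSL3 at 0 counts in TCam-2. Their part in the differences above was not tested.

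The neighbourhood of OSMR and LIFR on chromosome 5 was read for its other genes. EGFLAM, an extracellular matrix gene on the far side of LIFR, averaged 84.6 CPM in TCam-2 and 0.197 CPM in NTera2 (log2 fold change 9.10 in the denosumab libraries, edgeR adjusted p = 1.53e-19). RICTOR, which encodes an mTOR complex subunit and overlaps the end of OSMR on the opposite strand, averaged 22 CPM in TCam-2 and 9.43 CPM in NTera2 (log2 fold change 1.31, edgeR adjusted p = 2.23e-08). DAB2, an endocytic adaptor gene on the far side of RICTOR, did not pass the test, at 5.00 CPM in TCam-2 and 5.84 CPM in NTera2 (log2 fold change -0.03, edgeR adjusted p = 0.913). GDNF, PTGER4, FYB1 and C9 were at or near 0 in TCam-2, and FYB1 had no counts in either line. GDNF went the other way, with 10 counts in all TCam-2 libraries and 84 in all NTera2 libraries. OSMR and LIFR were therefore part of a stretch in which several but not all expressed genes were higher in TCam-2.

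Overlap matters for reading OSMR, because the strand setting of the counting was not given in the sources used here. RICTOR held 5085 counts in all TCam-2 libraries and 2515 in all NTera2 libraries, against 9130 for OSMR in TCam-2 and 652 in NTera2. RAVER2, an RNA-binding protein gene that overlaps JAK1 on the opposite strand, held 2818 counts in TCam-2 and 9755 in NTera2, against 18754 for JAK1 in TCam-2 and 7995 in NTera2. LIFR-AS1, antisense to LIFR, held 252 counts in TCam-2 and 191 in NTera2, against 5226 for LIFR in TCam-2 and 1724 in NTera2. How many reads such pairs exchanged was not tested.

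The treatments were the study's own question, and OSMR in TCam-2 gave the values by which it was chosen. With OPG, OSMR was at 56.4, 46.1, 49.8 and 43.2 CPM in TCam-2 at passages 118, 120, 121 and 122, against 40.6, 27.1, 35.9 and 31.9 CPM with vehicle. At each of the 4 passages the OPG library had the highest OSMR of the 4 treatments, between 1.36 and 1.70 times the vehicle library of the same passage. The fitted log2 fold change was 0.50 (SE 0.0993), a fold of 1.41. The gene ranked just after OSMR in that comparison was the ribosomal protein pseudogene RPS15P4 at -0.82, and then the pseudogene TMSB4XP4 at -1.05. No gene of the 16621 passed an adjusted p of 0.05 in edgeR, a share called of 0%, and DESeq2 called 7 genes. Among the members STAT3 also lay without overlap between OPG and vehicle, at 101, 89.1, 97.2 and 91.9 CPM with OPG and at 86.1, 78.9, 82.9 and 83.4 CPM with vehicle. OSMR and STAT3 were thus 2 of 8 members with all OPG libraries above all vehicle libraries, against 1.62% of all genes, a count that the choice of OSMR enters. SOCS3 was at 89.2, 101, 93.7 and 120 CPM with OPG and at 69.9, 91.1, 77.7 and 98.5 CPM with vehicle, higher with OPG at every passage while the groups overlapped. The fitted log2 fold changes of the other members were 0.16 for STAT3, 0.23 for SOCS3, 0.29 for IL6ST, 0.26 for LIF, 0.11 for JAK1, 0.06 for IL6R and -0.10 for LIFR, with a median of 0.20 over the 8 members and -0.01 over all genes.

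RANKL and denosumab were each compared with vehicle in the same way. In TCam-2 both comparisons use the same 4 vehicle libraries as the OPG comparison. The choice of OSMR favours low OSMR in these libraries, so its values over vehicle are not independent of that choice and lean upward. OSMR in TCam-2 was at 44.0, 36.8, 41.0 and 38.2 CPM with RANKL (log2 fold change over vehicle 0.20, 95% interval -0.01 to 0.40, edgeR adjusted p = 0.567) and at 37.6, 36.5, 38.5 and 37.1 CPM with denosumab (0.10, -0.11 to 0.30, adjusted p = 0.847). OSMR was above the vehicle library at all 4 passages with RANKL (ratios of 1.08 to 1.36) and at 3 of 4 with denosumab (0.926 to 1.35). Denosumab against RANKL, whose fold change rests on neither the OPG nor the vehicle libraries although these share in the estimate of spread, gave -0.10 for OSMR (-0.30 to 0.10, edgeR adjusted p = 1). The interval covers a fold between 0.811 and 1.07.

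In NTera2 no treatment comparison of OSMR passed the test. It was at 3.13, 2.68, 1.82 and 2.56 CPM with OPG and at 2.62, 2.32, 1.73 and 2.19 CPM with vehicle, with ratios of 1.05 to 1.2 at the 4 passages. The log2 fold change over vehicle was 0.22 with OPG (-0.37 to 0.81, edgeR adjusted p = 1), 0.24 with RANKL (-0.35 to 0.82, adjusted p = 0.787) and -0.10 with denosumab (-0.71 to 0.52, adjusted p = 0.963). Each of these intervals includes the log2 fold change of 0.50 seen with OPG in TCam-2. The difference between the lines in the OPG log2 fold change was 0.30 for OSMR, as a description since TCam-2 OPG entered it.

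EdgeR called 0 of 8 members with RANKL or denosumab in TCam-2 and 0 of 8 with RANKL, OPG or denosumab in NTera2, and 0% of all genes in each of these 5 comparisons. With the passage as a block, edgeR called 30 genes with denosumab in NTera2 and 2 in TCam-2, and still 0 of 8 members. At an unadjusted p under 0.05 the count was also 0 of 8 in each, against 8.92% and 6.56% of all genes with RANKL and denosumab in TCam-2 and 10.3%, 1.68% and 7.25% with RANKL, OPG and denosumab in NTera2. With the passage as a block, 1 of 8 had an unadjusted p under 0.05 in each of 3 comparisons, OSMR with RANKL in TCam-2, JAK1 with RANKL in NTera2 and IL6ST with OPG in NTera2. Without the 2 libraries of low RNA integrity, 2 of 8 did with RANKL in TCam-2, OSMR and IL6ST. In the NTera2 fits with the block, 2834 of 17351 genes had such a p with RANKL and 757 with OPG. JAK1 with RANKL was thus no excess over all genes. All-gene counts for these TCam-2 settings are not given here, and OSMR there rests on vehicle libraries that shared in its choice. DESeq2 called 0 of 8 in each of the 5 comparisons with vehicle. Denosumab against RANKL gave 0 of 8 in both lines as well, with 0% of all genes called. The interaction of line and treatment, fitted on all 32 libraries, gave 0 of 8 members for RANKL and for denosumab, at adjusted and unadjusted p alike, and 0% of all genes called, with 5.22% for RANKL and 4.78% for denosumab at an unadjusted p under 0.05. The interaction for OSMR was -0.04 with RANKL (-0.55 to 0.47, edgeR adjusted p = 1) and 0.24 with denosumab (-0.33 to 0.80, adjusted p = 0.956). The TCam-2 vehicle libraries, which shared in the choice of OSMR, entered both values.

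Among the other members, IL6ST showed the widest treatment values. In TCam-2 it was at 126, 79.4, 132 and 111 CPM with RANKL, at 130, 102, 126 and 103 CPM with OPG, at 114, 89.5, 120 and 122 CPM with denosumab, and at 118, 84.9, 112 and 54.6 CPM with vehicle. The vehicle library at passage 122 was the lowest of the 16. With that library left out, the log2 fold change over vehicle was 0.05 with RANKL, 0.10 with OPG and 0.04 with denosumab, against 0.24, 0.29 and 0.22 with all libraries. Without the 2 RANKL libraries of low RNA integrity, the RANKL value was 0.43 for IL6ST (edgeR adjusted p = 0.339), 0.29 for LIFR, against 0.14 with all libraries, and -0.25 for LIF, against -0.04. In NTera2 IL6ST was at 6.03, 4.66, 5.82 and 6.65 CPM with OPG and at 5.19, 3.73, 4.64 and 4.08 CPM with vehicle, with ratios of 1.16 to 1.63 at the 4 passages. That difference did not pass the test (log2 fold change 0.41, -0.04 to 0.85, edgeR adjusted p = 1).

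STAT3 in TCam-2 was at 92.9, 90.1, 97.5 and 88.5 CPM with RANKL and at 95.8, 96.2, 88.3 and 87.9 CPM with denosumab, above all 4 vehicle libraries in both cases. The log2 fold change was 0.11 with RANKL (-0.03 to 0.25, edgeR adjusted p = 0.582) and 0.11 with denosumab (-0.03 to 0.24, adjusted p = 0.748). Groups lay apart in this direction for 1.77% of all genes with RANKL and 2.22% with denosumab. STAT3 in NTera2 differed from vehicle by 0.04 or less in size with each treatment, and its intervals reached no farther than 0.17 above and -0.14 below 0. Fitted values of LIFR, IL6R, LIF, JAK1 and SOCS3 in TCam-2 were within 0.26 of vehicle. Among lists of the pathway, none of 27 tested STAT3 target genes in NTera2 or 26 in TCam-2 was called with any treatment, and their median log2 fold changes were between -0.11 and 0.01.

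**Figure D4:**
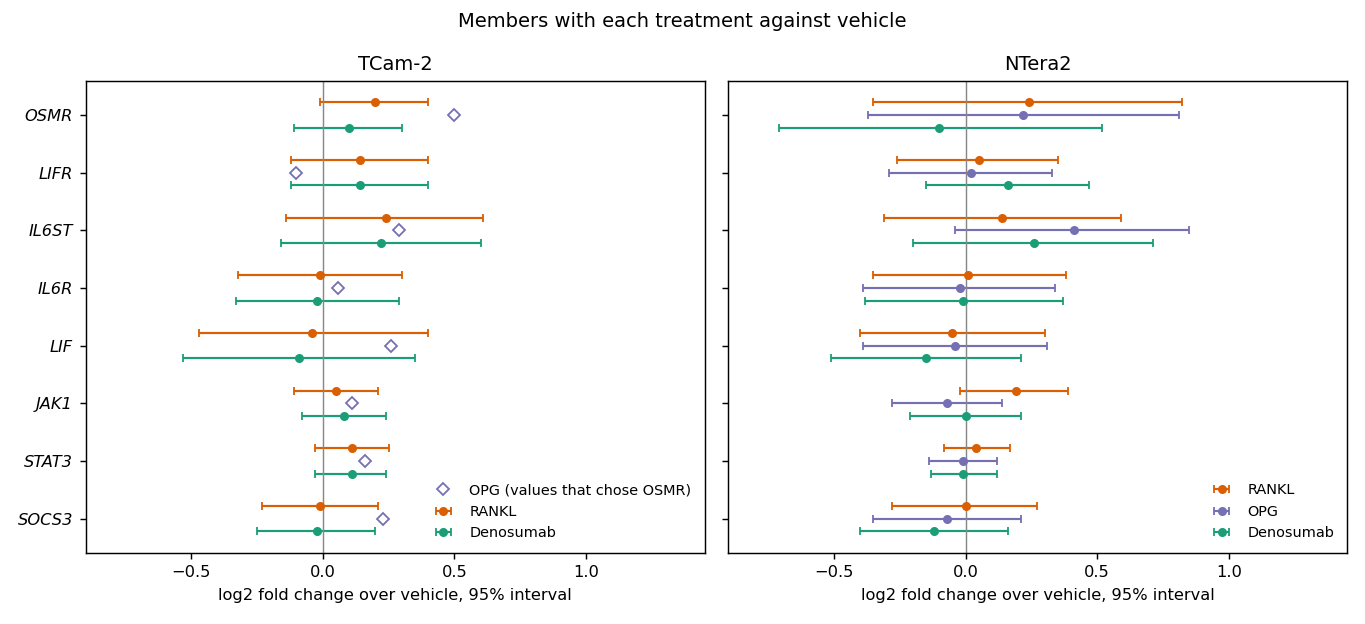
Log2 fold change over vehicle of each member with RANKL, OPG and denosumab in TCam-2 (left) and NTera2 (right); filled points carry 95% intervals, and open diamonds are TCam-2 with OPG, the values that chose OSMR, drawn without an interval. All intervals drawn include 0, and the widest belong to OSMR in NTera2.

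Each replicate number is a passage, which allowed the members to be compared between experiments at equal treatment. In TCam-2 edgeR called 2 of 8 members between passages, where 1.77% of all genes were called. IL6R averaged 45.0 ± 4.40, 55.9 ± 6.56, 66.9 ± 3.70 and 59.3 ± 6.06 CPM at passages 118, 120, 121 and 122 (SD over 4 treatments, adjusted p = 0.00763, edgeR). SOCS3 averaged 80.1 ± 8.16, 92.5 ± 5.50, 85.3 ± 6.70 and 99.7 ± 14.6 CPM at the same passages (adjusted p = 0.0355, edgeR). IL6R was thus lowest at passage 118, and SOCS3 lowest at 118 and highest at 122. The IL6R call was lost without any 1 of the passage 118 libraries of vehicle, RANKL or OPG (adjusted p between 0.0591 and 0.0861). The SOCS3 call was lost in 11 of 16 fits that left out 1 library (up to 0.157) and without the 2 libraries of low RNA integrity (0.0895).

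IL6ST in TCam-2 was not called between passages with all libraries (adjusted p = 0.158, edgeR) but was without vehicle at passage 122 (adjusted p = 0.00208) or denosumab at passage 122 (0.0324). It averaged 122, 88.9, 123 and 97.6 CPM at passages 118, 120, 121 and 122. OSMR averaged 44.7 ± 8.26, 36.6 ± 7.76, 41.3 ± 6.03 and 37.6 ± 4.66 CPM and was not called (adjusted p = 0.299, edgeR). In NTera2 1 of 8 members was called, against 8.28% of all genes, which is near the background. SOCS3 averaged 18.1 ± 2.68, 22.7 ± 1.33, 24.3 ± 1.55 and 19.7 ± 1.77 CPM at passages 27, 29, 30 and 31 (adjusted p = 0.023, edgeR), and the call was lost without NTera2 RANKL at passage 27 (0.0796) or at passage 30 (0.057). LIF had the next smallest p there and was not called (adjusted p = 0.0663, edgeR), at 6.74, 9.83, 7.78 and 8.09 CPM. Passage number, day of culture and library preparation cannot be told apart in this design.

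**Figure D5:**
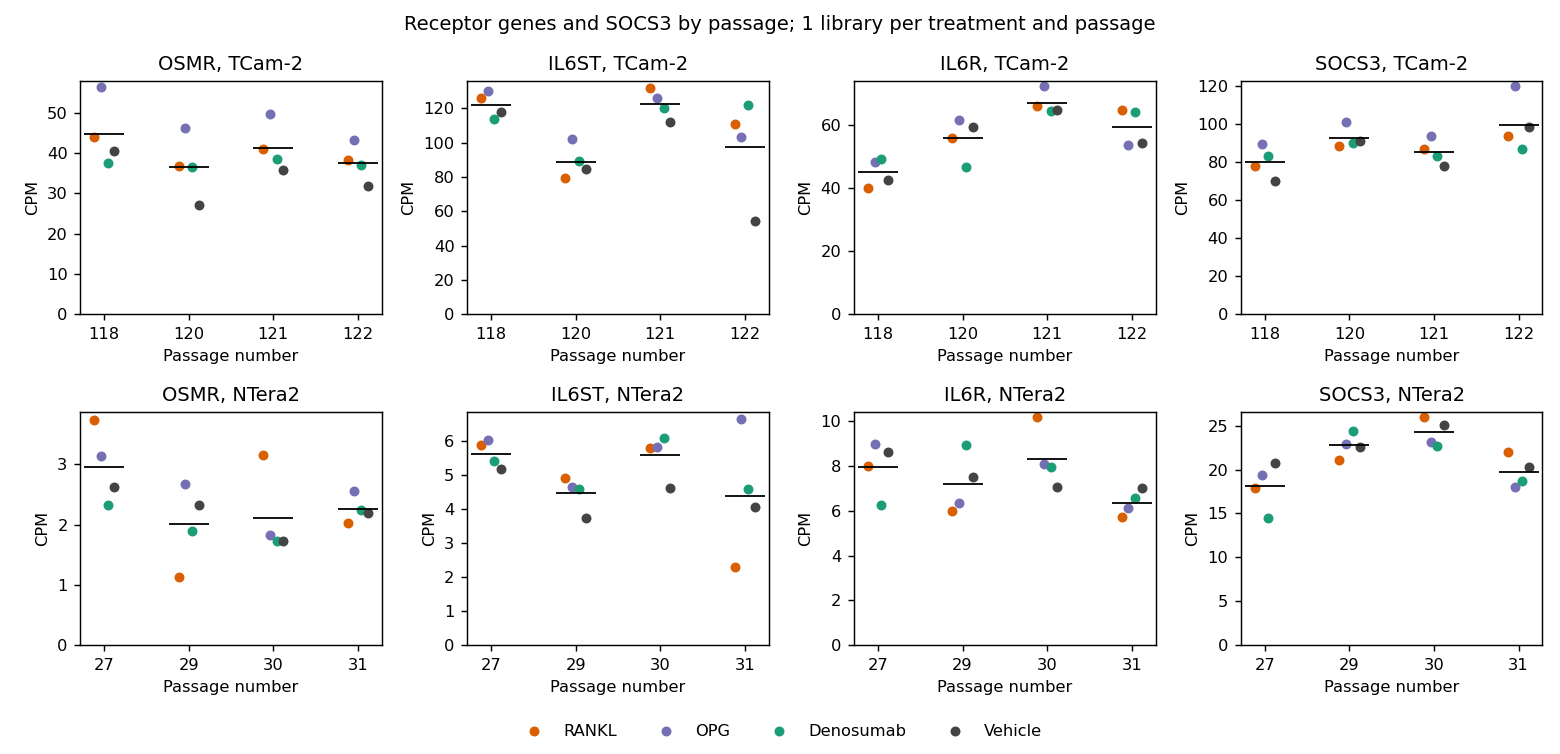
CPM of OSMR, IL6ST, IL6R and SOCS3 by passage, TCam-2 in the upper row and NTera2 in the lower, with 1 library per treatment and passage and bars for the mean of 4. In TCam-2 the IL6R mean was 45.0 CPM at passage 118 and 66.9 CPM at passage 121. The OPG library had the highest OSMR at each TCam-2 passage, but these values entered the choice of OSMR.

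The genes whose levels followed OSMR most closely were found by Pearson's r of log2 CPM (prior count 2) over the 16 libraries of a line. In TCam-2 the 5 nearest of 16621 genes were SIDT2 and NCAPG2 (r = 0.85 each), KIAA1671 (0.84), SLFN13 and KDM3A (0.83 each). SIDT2 encodes a lysosomal membrane protein, NCAPG2 a condensin subunit and KDM3A a histone demethylase. Of the other members, STAT3 had r = 0.76 with OSMR and ranked 52 among all genes. IL6ST had r = 0.62 and JAK1 0.53, while LIF (0.14), SOCS3 (0.08), LIFR (-0.01) and IL6R (-0.10) lay near 0. In NTera2 the nearest of 17351 genes were CREBL2 (0.85), MINPP1, KIZ and PEX5L (0.81 each) and P2RY1 (0.80), so the 5 nearest genes of the lines had none in common. IL6R was the nearest member there with r = 0.40, STAT3 had r = -0.18 and LIF -0.54. These are descriptions over 16 libraries that share treatments, passages and depth, without a test. The TCam-2 values include the OPG and vehicle libraries whose difference chose OSMR, and STAT3 lay apart between these groups too.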

How the data were processed

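Polyadenylated RNA of 32 cultures was sequenced, and the deposited table holds raw read counts per gene with gene coordinates and lengths. Per the submitters' processing notes, bcl2fastq 2.20.0, STAR 2.7.9a, featureCounts 1.6.2 and GRCh38 were used. For the strand setting and the annotation release, the value is not given in the sources used here. The authors' counts entered edgeR 4.0.16 (R 4.3.3) as deposited, with filterByExpr by group, TMM scaling and the robust quasi-likelihood test, and p-values were adjusted by Benjamini-Hochberg over all genes tested, with a threshold of 0.05. Treatments were compared within a line (16 libraries), the lines within a treatment (8 libraries), passages within a line with treatment as a term, and the interaction over 32 libraries. The members and lists were chosen with earlier results of these data known. Up to 4 genes per list and comparison with the largest log2 fold change were named, beside the members and the genes on either side of OSMR. Some genes that this rule names are not reported here. Within a line, replicate numbers mark a shared passage, per the labels, so they pair its libraries. Residuals of same-numbered libraries correlated by 0.06 on average in TCam-2 and 0.08 in NTera2, against -0.02 in TCam-2 and -0.03 in NTera2 for different numbers. Alternatives were DESeq2 1.42.0, other scalings, no filter, the replicate block and each library left out. Scripts were tested on simulated data. Intervals of single values cover the spread between experiments, and limits from 0 counts cover counting error only.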

Additional observations from a re-analysis of the deposited data

Results flagged for a closer look

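JAK1 in the TCam-2 OPG library at passage 120 stood far from the others of its group, at 93.7 CPM against 80.2 to 82.3 CPM. Its gap to the nearest library was 0.844 of the group's range, above Dixon's critical value for 4 samples. It was the only such case among 64 groups of members checked, and chance gives about 1 in 20 groups.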

How the results depend on the processing

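Among 2545 recomputed values, no member that was called changed direction. DESeq2 gave no adjusted p for OSMR between passages of NTera2, which was left out. With the replicate block, 136 of 140 results were classed as unchanged, a class that includes small moves in a count of calls. Between the lines, where it joins libraries by replicate number only, the block made LIF a call with RANKL (log2 fold change 0.44, edgeR adjusted p = 0.0427), so that 8 members were called there. It also called 30 genes with denosumab in NTera2, 2 in TCam-2 and 1 in their interaction, none of them called without it. In the comparison that chose OSMR, the count of members called was 1 with DESeq2 and 1 without the filter, in both cases OSMR itself, which the choice favours. Between passages of NTera2 DESeq2 called 2 members. Between passages of TCam-2, 3 were called by DESeq2, 4 without the filter, 1 with no treatment term and 1 without the 2 libraries of low RNA integrity, the last chosen after seeing the data. Leaving out 1 library gave 0 to 2 members between passages in NTera2, 0 to 3 in TCam-2, and 7 to 8 between the lines with RANKL and with denosumab. Without the filter, edgeR called 176 genes with RANKL and 237 with denosumab in NTera2, and 51, 54 and 28 with RANKL, OPG and denosumab in TCam-2. DESeq2 called 14 genes with denosumab in NTera2, and 1 with RANKL and 7 with OPG in TCam-2. Between passages of TCam-2, 294 genes were called, against 733 by DESeq2, 750 without the filter, 173 with no treatment term and 140 without the low-integrity libraries, and 90 to 845 with 1 library left out. In NTera2 1436 were called, against 778 with no treatment term and 538 to 2409 with 1 library left out. Upper-quartile scaling moved the median of all genes between the lines by -0.13 with denosumab. The cause of these changes was not tested. OSMR in NTera2 had 17 to 122 reads per library, which limits its treatment comparisons, as does its spread between libraries (1.13 to 3.74 CPM).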
